A study of Homo sapiens with 8 samples.

Results

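The metallothionein genes MT1E, MT1F, MT1G, MT1H, MT1M, MT1X and MT2A were followed in HCT116, an established human colorectal carcinoma line, exposed to 3 histone deacetylase inhibitors. They were chosen by name: every probe set whose platform annotation gave exactly 1 gene symbol equal to one of these 7 was taken, which gave 11 of the 54613 probe sets in the deposited table, for 7 of 19775 genes with such a probe set. Cultures received largazole at 20 nM, SAHA at 2 µM, FK228 at 20 nM or vehicle, and total RNA was taken after 10 h. Largazole is a cyclic depsipeptide that carries a thioester, FK228 (romidepsin) is a bicyclic depsipeptide closed by a disulfide, and SAHA (vorinostat) is a hydroxamic acid. Each of the 4 groups held 2 Affymetrix U133 2.0 arrays, 8 in all, and carried no other label. The comparisons ask what each inhibitor did to the level of these transcripts against vehicle, and whether the 2 depsipeptides differed at equal dose.

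Metallothioneins are small, cysteine-rich proteins that hold zinc and copper in thiolate clusters and buffer the free pool of these metals. Their human genes lie side by side on chromosome 16. When free zinc rises, the zinc-finger protein MTF1 binds metal response elements in their promoters and raises transcription, and it does the same at SLC30A1, a zinc exporter of the plasma membrane. Glucocorticoid receptor and STAT3 are further known inputs. MT1 and MT2 isoforms are found in most tissues, and in colorectal tumours they are commonly lower than in normal mucosa.

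The metal response element core was searched in the promoters of the 3 members present in the RefSeq promoter table (MT2A, MT1H and MT1X, GRCh38.p14, 3 of 7 members). These stretches are shown because the cores are what MTF1 is known to bind. Whether MTF1 acted through them in these cultures was not tested. Each line gives the 250 bases before the annotated start on the + strand, in lower case, with every core in capitals. The letters searched were TGCACNC and TGCGCNC on both strands, and no match overlapped another in these 3 promoters.
MT2A, chr16:56608334-56608583, + strand: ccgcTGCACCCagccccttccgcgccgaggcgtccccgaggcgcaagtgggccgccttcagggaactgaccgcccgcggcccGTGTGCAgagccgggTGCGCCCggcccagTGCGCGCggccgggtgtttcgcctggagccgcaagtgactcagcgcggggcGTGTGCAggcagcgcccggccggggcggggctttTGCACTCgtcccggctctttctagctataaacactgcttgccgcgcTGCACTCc
MT1H, chr16:56669564-56669813, + strand: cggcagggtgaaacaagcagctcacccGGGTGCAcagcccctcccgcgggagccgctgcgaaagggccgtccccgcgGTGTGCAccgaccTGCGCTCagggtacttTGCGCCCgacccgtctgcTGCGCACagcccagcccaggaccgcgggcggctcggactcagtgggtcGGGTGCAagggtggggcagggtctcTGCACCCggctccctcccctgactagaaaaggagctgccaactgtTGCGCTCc
MT1X, chr16:56682220-56682469, + strand: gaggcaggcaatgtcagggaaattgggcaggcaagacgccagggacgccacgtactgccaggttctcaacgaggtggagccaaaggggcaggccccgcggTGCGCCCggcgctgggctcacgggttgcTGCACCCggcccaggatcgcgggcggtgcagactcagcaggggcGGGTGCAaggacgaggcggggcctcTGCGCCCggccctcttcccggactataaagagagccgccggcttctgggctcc

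The window of MT2A held 7 cores, that of MT1H 8 and that of MT1X 4. Those of MT1B and MT4, metallothioneins outside the 7 members, held 3 each. No change of MT4 was called with any compound, though its difference with FK228 was 0.40 (adjusted p = 0.0773, limma). Whether the number of cores goes with the size of a change was not tested. Of 35116 promoter windows of the same length, 24.8% held at least 1 core and 1.58% at least 3. A share of 0.37% held at least 4 and 0.0171% at least 8. TGCACNC alone was present in 9.87% of all windows and TGCGCNC in 16.8%. All 3 members had a core beginning 53 or 54 bases before the start. A match is a run of letters and was not read as a bound site.

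Most metallothionein probe sets were higher after each inhibitor, by small amounts. Against vehicle, 8 of 9 tested probe sets rose with largazole, 9 of 9 with SAHA and 6 of 9 with FK228, and 0 fell with any of the 3. The median log2 difference was 0.41 with largazole, 0.47 with SAHA and 0.34 with FK228, and over all tested probe sets the median lay between -0.00020 and 0.021. A call needed a limma adjusted p under 0.05, and higher calls made up 19.6% of all 28985 tested probe sets for largazole, 21.7% for SAHA and 24.3% for FK228. Lower calls made up 21.1%, 22.0% and 24.7%. Both treated arrays lay above both vehicle arrays for all 9 tested probe sets with each compound, against 35.0%, 34.8% and 37.6% of all tested probe sets for largazole, SAHA and FK228. The 3 comparisons share their vehicle arrays. The largazole count was 5 without largazole replicate 1, 4 without largazole replicate 2 and 5 without vehicle replicate 1, while the SAHA count stayed between 6 and 9 and the FK228 count between 4 and 6 with any array left out.

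**Figure D1:**
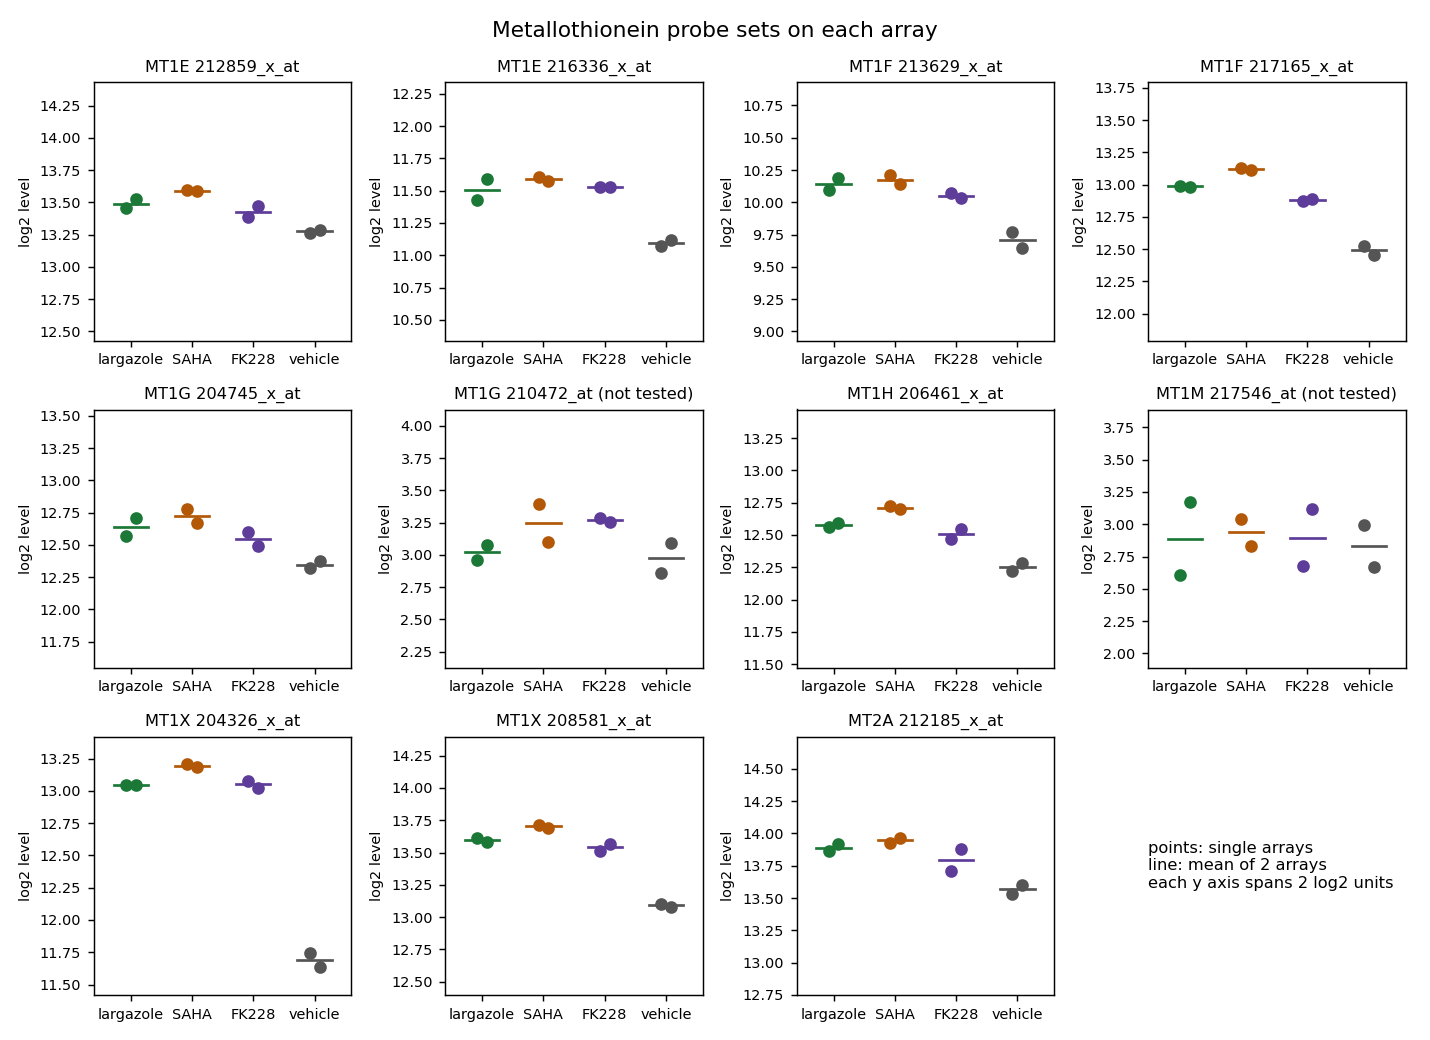
Log2 level of each of the 11 metallothionein probe sets on every array, with points for single arrays, a line at the mean of 2 arrays, and largazole, SAHA and FK228 left of vehicle. The treated arrays lie above the vehicle arrays in the 9 tested probe sets, with the widest gap at MT1X 204326_x_at, whose vehicle arrays stand at 11.75 and 11.63.

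The measurements set limits that bear on all of these values. Median log2 level lay between 4.47 and 4.51 on the 8 arrays, arrays of a group correlated at 0.995 to 0.997 over all probe sets, and the highest value on an array was 14.44 to 14.67. The 9 tested metallothionein probe sets ranked above 93.6% to 99.7% of probe sets on the vehicle arrays, so several were near the top of the scale, where a probe responds less than in proportion to its target; its part in the sizes below was not tested. All but 2 of the 11 names end in _x_at, the manufacturer's mark for probes that can match several similar transcripts, so signal cannot be assigned to 1 isoform with certainty. Levels are therefore given for each probe set on its own. All 8 epithelial markers passed the filter on low values, and 7 lay over its level of 4.49 on every array. EPCAM, KRT8, KRT18 and KRT19 stood between 11.91 and 12.95 on all arrays. VIL1 stayed between 4.39 and 4.73, near the filter level, so its presence was not clear. Of the same list, CLDN4 averaged 7.75 with largazole, 7.59 with SAHA and 6.73 with FK228, against 8.39 with vehicle. CDX2 averaged 5.04, 4.95 and 5.29 with the 3 compounds, against 5.85 with vehicle, and CDH1 10.14, 10.19 and 10.1, against 9.41 with vehicle. None of 4 leukocyte and 0 of 2 liver or kidney markers passed. Of 5 fibroblast and 3 endothelial markers, 2 each passed, and COL1A1 averaged 8.40 with largazole, 7.85 with SAHA and 7.73 with FK228, against 7.13 with vehicle. COL1A2 and COL3A1 stayed at or below 3.88. The part of COL1A1-expressing cells in the results was not tested. Arrays of whole cultures cannot tell more expressing cells from more RNA per cell.

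MT1X, an MT1 isoform at the far end of the cluster, is the platform's name for 2 probe sets, which changed by different amounts. Probe set 208581_x_at, built on the RefSeq MT1X transcript, read 13.61 and 13.58 with largazole, 13.72 and 13.69 with SAHA and 13.51 and 13.57 with FK228, against 13.10 and 13.08 with vehicle. All 6 treated arrays lay above both vehicle arrays. It rose by 0.50 with largazole (95% confidence interval 0.32 to 0.68, adjusted p = 0.00144, limma), by 0.61 with SAHA (0.43 to 0.79, adjusted p = 0.00049) and by 0.45 with FK228 (0.27 to 0.63, adjusted p = 0.00182).

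Probe set 204326_x_at, also annotated MT1X, rose most. It read 13.04 and 13.05 with largazole, 13.21 and 13.18 with SAHA and 13.08 and 13.02 with FK228, against 11.75 and 11.63 with vehicle. The vehicle arrays stood more than 1 log2 unit below every treated array. The difference was 1.36 with largazole (95% confidence interval 1.17 to 1.54, a 2.56-fold rise), 1.51 with SAHA (1.32 to 1.69, 2.84-fold) and 1.36 with FK228 (1.17 to 1.55, 2.57-fold). Limma adjusted p was 2.16e-05 with largazole, 1.42e-05 with SAHA and 1.04e-05 with FK228. These rises were larger than those of 98.4%, 98.8% and 97.5% of all tested probe sets, in the same order of compounds. Each of the 3 calls held in all 16 alternative settings, with differences from 1.30 to 1.41, 1.45 to 1.56 and 1.30 to 1.42.

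The accession that the platform gives for 204326_x_at is the RefSeq transcript of MT1L, a transcribed pseudogene that lies between MT2A and MT1E, and not that of MT1X. The platform annotation and the RefSeq table therefore name different genes for the probe set with the largest change. Its signal is given here under the platform's name, and which transcript supplied it was not tested.

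MT2A, the most widely expressed isoform in human tissues, was read by 212185_x_at. It stood at 13.86 and 13.92 with largazole, 13.92 and 13.97 with SAHA and 13.71 and 13.88 with FK228, against 13.53 and 13.60 with vehicle. No treated array overlapped the vehicle arrays, and FK228 replicate 1 was the lowest treated one. MT2A rose by 0.32 with largazole (adjusted p = 0.0215) and by 0.38 with SAHA (adjusted p = 0.0101, limma). With FK228 the difference was 0.23 (95% confidence interval 0.020 to 0.43, adjusted p = 0.0679), short of the threshold. The largazole call was lost with no filter (adjusted p = 0.0616) and when any largazole or vehicle array was left out (adjusted p = 0.0575 to 0.112), and the SAHA call without vehicle replicate 1 (adjusted p = 0.0581). The FK228 difference was called in 5 of 16 alternatives.

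MT1F, an isoform in the middle of the cluster, rose with every compound at both of its probe sets. Probe set 217165_x_at read 12.99 and 12.98 with largazole, 13.13 and 13.12 with SAHA and 12.87 and 12.89 with FK228, against 12.53 and 12.45 with vehicle. The differences were 0.50, 0.63 and 0.39 for largazole, SAHA and FK228, with limma adjusted p of 0.00156, 0.00042 and 0.00386. Treated and vehicle arrays did not overlap, and 217165_x_at was called in all 16 alternatives for each compound. Probe set 213629_x_at read 10.09 and 10.19 with largazole, 10.21 and 10.14 with SAHA and 10.07 and 10.03 with FK228, against 9.77 and 9.64 with vehicle. Its rises were 0.43, 0.47 and 0.34 (adjusted p = 0.00544, 0.00337 and 0.0126), so both MT1F probe sets rose with each compound. The FK228 call of 213629_x_at ended without FK228 replicate 1 (adjusted p = 0.0577), and also with the second vehicle array left out (adjusted p = 0.0784).

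MT1E, the member next to MT2A among the protein-coding genes, gave a call at one probe set with all compounds and at the other with SAHA. Probe set 216336_x_at read 11.43 and 11.59 with largazole, 11.61 and 11.58 with SAHA and 11.53 and 11.53 with FK228, against 11.07 and 11.12 with vehicle. It rose by 0.41, 0.50 and 0.43 with largazole, SAHA and FK228 (adjusted p = 0.00617, 0.00232 and 0.00385, limma), and the largazole call ended without largazole replicate 2 (adjusted p = 0.0537). Probe set 212859_x_at read 13.45 and 13.52 with largazole, 13.59 and 13.59 with SAHA and 13.39 and 13.47 with FK228, against 13.26 and 13.29 with vehicle. Its treated arrays again lay above the vehicle arrays, but by less. The difference was called with SAHA (0.31, adjusted p = 0.014) and not with largazole (0.21, adjusted p = 0.0677) or FK228 (0.15, adjusted p = 0.151). The SAHA call ended when SAHA replicate 1 (adjusted p = 0.0532) or either vehicle array (adjusted p = 0.0644 and 0.0525) was left out.

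MT1G and MT1H, neighbours in the cluster, each had 1 tested probe set, and both of these probe sets rose with largazole and SAHA. The other MT1G probe set, 210472_at, did not pass the filter and read 2.86 to 3.39 over the 8 arrays. The tested one, 204745_x_at, read 12.32 to 12.78, and which transcripts supplied its signal was not tested. MT1H (206461_x_at) read 12.56 and 12.59 with largazole, 12.72 and 12.70 with SAHA and 12.47 and 12.54 with FK228, against 12.22 and 12.28 with vehicle. It rose by 0.33, 0.46 and 0.26 with largazole, SAHA and FK228 (adjusted p = 0.0123, 0.00224 and 0.0286, limma). The FK228 call of MT1H was lost in 8 of 16 alternatives, among them those without either FK228, largazole or vehicle array (highest adjusted p = 0.129). Its largazole call was lost without either largazole array or vehicle replicate 1 (adjusted p = 0.0554 to 0.0732). MT1G (204745_x_at) read 12.57 and 12.71 with largazole, 12.78 and 12.67 with SAHA and 12.60 and 12.49 with FK228, against 12.32 and 12.38 with vehicle. It rose with largazole (0.29, adjusted p = 0.0373) and SAHA (0.38, adjusted p = 0.0121), while with FK228 the difference was 0.20 (95% confidence interval -0.016 to 0.41, adjusted p = 0.114). The MT1G call with largazole was lost with no filter (adjusted p = 0.0981), with equal ribosomal protein medians (adjusted p = 0.0631) and when any largazole or vehicle array was left out (highest adjusted p = 0.209). That with SAHA ended when the first SAHA array (adjusted p = 0.0662) or the first vehicle array was removed (adjusted p = 0.0643).

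The remaining 2 probe sets did not pass the filter, which asked that the second-highest of the 8 values reach 4.49, the median of all values. They were the only members whose names do not end in _x_at. MT1M (217546_at) read 2.61 and 3.17 with largazole, 3.04 and 2.83 with SAHA and 2.68 and 3.11 with FK228, against 2.997 and 2.669 with vehicle, so all groups overlapped. The second MT1G probe set, 210472_at, read 2.96 and 3.08 with largazole, 3.39 and 3.10 with SAHA and 3.29 and 3.25 with FK228, against 2.86 and 3.09 with vehicle. Its largazole and vehicle values overlapped, and its SAHA and FK228 values lay above both vehicle values, by 0.27 and 0.30 on average. With no filter applied, neither was called against vehicle (MT1M adjusted p = 0.818 to 0.915, MT1G 210472_at adjusted p = 0.15 to 0.884). A change in MT1M was not detectable at these levels.

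**Figure D2:**
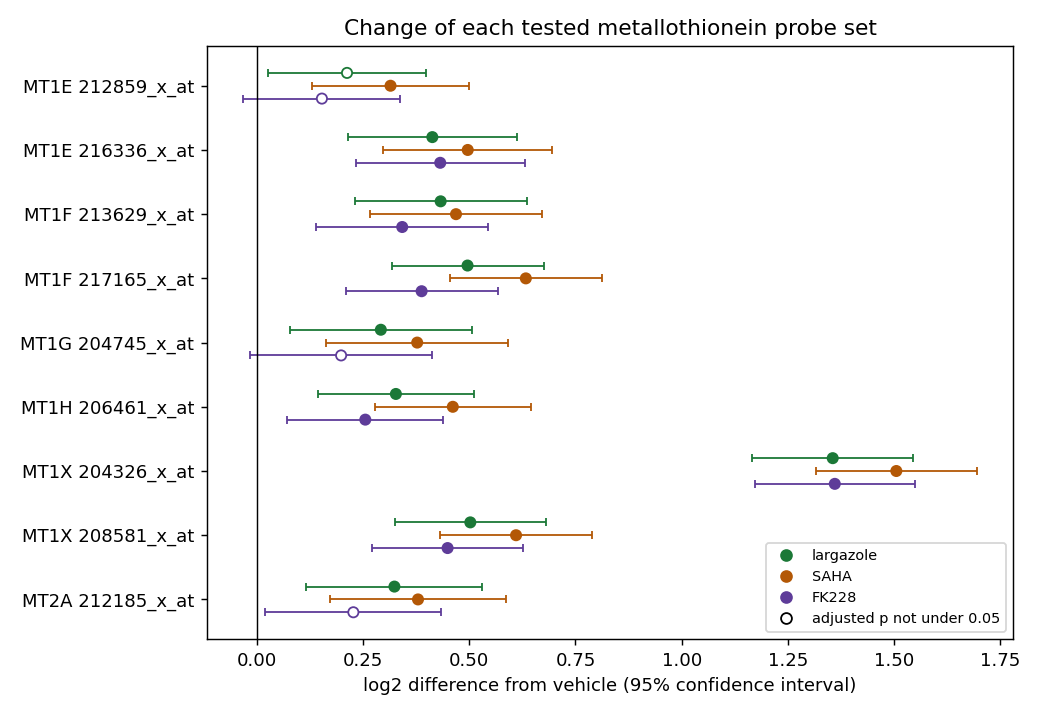
Log2 difference from vehicle of the 9 tested metallothionein probe sets with largazole, SAHA and FK228, with 95% confidence intervals from limma; open circles had an adjusted p of 0.05 or more. MT1X 204326_x_at lies at 1.36 to 1.51, and the other 8 probe sets lie between 0.15 and 0.63.

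No tested metallothionein probe set was called different between the 2 depsipeptides at equal dose. FK228 against largazole gave 0 calls of 9 by limma, where 8.23% of all tested probe sets were called, and 0 of 9 had an unadjusted p under 0.05 (smallest 0.199). FK228 minus largazole ran from -0.11 at MT1F 217165_x_at to 0.019 at MT1E 216336_x_at, with a median of -0.072. The confidence interval reached -0.31 to 0.12 for MT1G, -0.30 to 0.11 for MT2A and -0.18 to 0.19 for MT1X 204326_x_at. These intervals give the range of differences the arrays leave possible. The count was 0 in each of the 16 alternatives as well. SAHA was given at another dose, so its values stand beside the others with no test. Its mean was the highest at 9 of 9 tested probe sets, followed by largazole and FK228 at 7 of them, and by FK228 and largazole at MT1E 216336_x_at and MT1X 204326_x_at, with vehicle lowest at each.

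Across the 8 arrays the tested probe sets moved together. Pearson's r between any 2 of them lay between 0.85 and 0.989 over 36 pairs, with a median of 0.93. These values describe arrays that share the split between treated and vehicle cultures, and probes of similar sequence, and are not independent.

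Beyond the 7 members, 3 other metallothionein genes of the fixed list had a probe set with 1 symbol. MT1HL1, an MT1-like gene on another chromosome, was read by 211456_x_at at 12.52 and 12.61 with largazole, 12.62 and 12.67 with SAHA and 12.60 and 12.49 with FK228, against 12.30 and 12.34 with vehicle. All treated arrays of MT1HL1 lay above both vehicle arrays. It rose with SAHA (0.33, adjusted p = 0.0156, limma). The differences with largazole (0.25, adjusted p = 0.05002) and FK228 (0.23, adjusted p = 0.0587) narrowly missed the threshold. The name of this probe set also ends in _x_at, so its signal cannot be assigned to 1 gene with certainty. MT3, the isoform known from brain, and MT4, known from stratified epithelia, were not called with any compound. MT3 differed from vehicle by -0.18, -0.18 and -0.0041 and MT4 by -0.099, 0.024 and 0.40 with largazole, SAHA and FK228.

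Of 13 tested probe sets for 8 neighbouring genes, 1 rose and 0 fell with largazole, 2 rose and 1 fell with SAHA and 3 rose and 0 fell with FK228. The shares that rose were 7.69%, 15.4% and 23.1%, against 19.6%, 21.7% and 24.3% of all tested probe sets with largazole, SAHA and FK228, so the FK228 share lay near that of all probe sets. Their median log2 difference was -0.090, -0.0047 and 0.056. The rise shared by all compounds was that of HERPUD1, a stress-induced protein of the endoplasmic reticulum, at 0.89 with largazole, 0.70 with SAHA and 1.22 with FK228. NUP93, a nuclear pore subunit and the nearest gene on the MT1X side, rose with SAHA (0.28) and FK228 (0.47), and its difference with largazole was 0.22. On the other side, the single tested probe set of BBS2, a gene of the ciliary BBSome, differed by 0.0014, -0.066 and -0.043 with largazole, SAHA and FK228 and was not called. NLRC5, a regulator of class I antigen presentation genes, fell with SAHA (-0.71). The third rise with FK228 was 1 of 4 tested probe sets of OGFOD1, which hydroxylates a ribosomal protein (0.32).

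**Figure D3:**
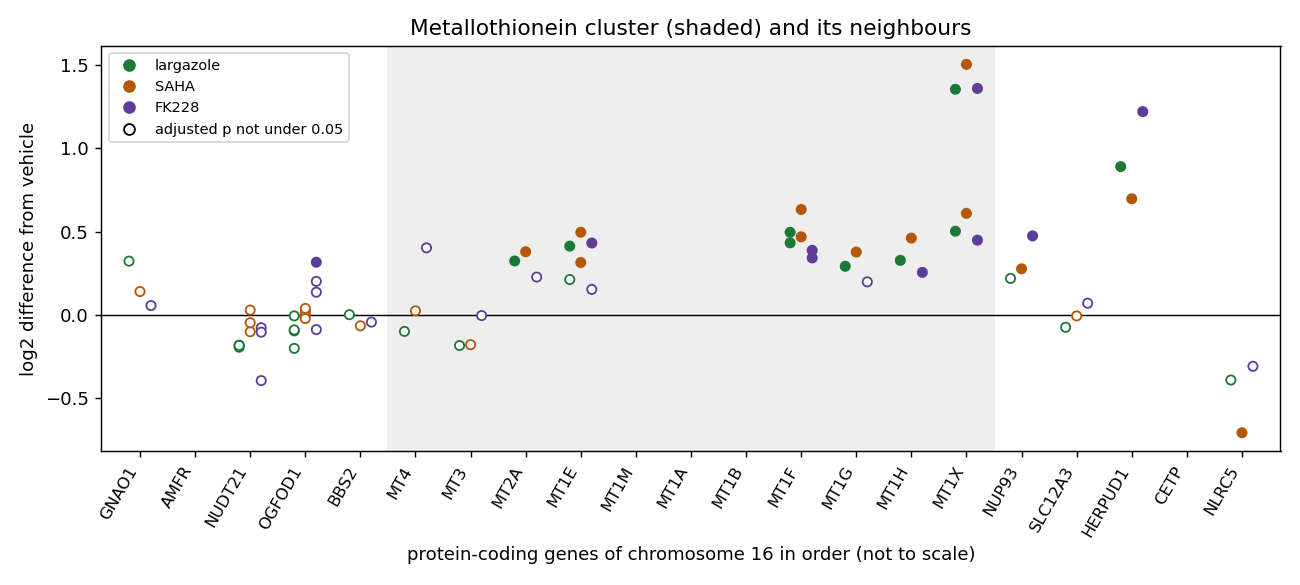
Log2 difference from vehicle for tested probe sets of the metallothionein cluster (shaded) and 5 protein-coding genes on either side, in gene order and not to scale; open circles were not called. Members between MT2A and MT1X lie above 0, including MT1X 204326_x_at at 1.36 to 1.51, whose accession is that of MT1L, while BBS2, MT3 and MT4 were not called.

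Among known regulators, MTF1 and STAT3 rose and others fell. MTF1, the zinc-sensing activator of these genes, rose at 3 of 3 probe sets with each compound. Its probe set 227150_at read 8.39 and 8.41 with largazole, 8.75 and 8.70 with SAHA and 8.97 and 9.04 with FK228, against 7.69 and 7.87 with vehicle. The log2 rise of MTF1 lay between 0.40 and 0.90 with largazole, 0.48 and 0.98 with SAHA and 0.72 and 1.25 with FK228. FK228 exceeded largazole by 0.61 at 227150_at, a called difference, while the differences of 0.35 at 205322_s_at (adjusted p = 0.0664) and 0.32 at 205323_s_at (adjusted p = 0.0632, limma) were not called. STAT3, a cytokine-activated factor, rose at its 3 tested probe sets by 1.36 to 1.62 with largazole, 1.34 to 1.61 with SAHA and 1.44 to 1.76 with FK228. NFE2L2, which drives the antioxidant response, fell at 2 of 3 probe sets with each compound, at 201146_at by -0.92, -1.07 and -1.91 with largazole, SAHA and FK228. NR3C1, the glucocorticoid receptor, fell at 2 of 4 tested probe sets with largazole, 1 of 4 with SAHA and 4 of 4 with FK228. USF1 and SP1, general upstream factors, fell at each of their tested probe sets, by -0.48 to -0.80 for SP1. Over the list of 7 regulators, 6 of 19 probe sets rose with each compound, and 8, 9 and 12 fell with largazole, SAHA and FK228. The 31.6% that rose stands beside 19.6%, 21.7% and 24.3% of all tested probe sets, and the 42.1%, 47.4% and 63.2% that fell beside 21.1%, 22.0% and 24.7%. Probe sets of 1 gene are not independent of each other.

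Zinc carriers moved in both directions. SLC30A1, the exporter that MTF1 is known to control, rose at both tested probe sets. At 212907_at it read 9.86 and 10.01 with largazole, 9.97 and 9.87 with SAHA and 10.31 and 10.11 with FK228, against 9.15 and 9.10 with vehicle, rises of 0.81, 0.80 and 1.09. At 228181_at SLC30A1 rose by 0.55, 0.71 and 0.34, so the compound with the smallest and largest rise depended on the probe set. Its promoter window held 1 core, and that of MTF1 held 0. SLC30A4, an exporter of intracellular vesicles, rose by 0.81, 0.60 and 0.66 with largazole, SAHA and FK228. Of 16 tested exporter probe sets, 4 rose and 1 fell with largazole, 6 rose and 0 fell with SAHA, and 5 rose and 0 fell with FK228; these shares of 25.0%, 37.5% and 31.2% stand beside 19.6%, 21.7% and 24.3% higher calls over all probe sets. The faller with largazole was SLC30A6 (-0.25).

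Importers of the SLC39 family gave 3 rises and 3 falls with largazole, 4 and 3 with SAHA, and 5 and 3 with FK228 among 21 tested probe sets. The shares that rose were 14.3%, 19.0% and 23.8%, beside 19.6%, 21.7% and 24.3% of all tested probe sets. With SAHA and FK228 they lay near the share of all probe sets. The share that fell was 14.3% with each compound, against 21.1%, 22.0% and 24.7%. SLC39A10, an importer of the plasma membrane, fell most, by -0.97, -0.98 and -1.15 with largazole, SAHA and FK228. SLC39A7, which releases zinc from the endoplasmic reticulum, fell by -0.60, -0.44 and -0.67. SLC39A9 rose at both of its tested probe sets with each compound, by 0.35 to 0.56. SLC39A3 rose at 223917_s_at by 0.50, 0.49 and 0.81, while its other tested probe set, 229677_at, was not called (0.12, 0.023 and 0.23). SLC39A6 rose at 1555460_a_at with FK228 (0.46) and at 202089_s_at with SAHA (0.32) and FK228 (0.35). Its tested probe sets 202088_at (0.088, 0.14 and 0.067) and 1556551_s_at were not called with any compound.

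Most copper handling genes rose. Of 10 tested probe sets for 7 genes, 8 rose with largazole, 9 with SAHA and 9 with FK228, and 0 fell, with median log2 differences of 0.49, 0.58 and 0.66. The shares that rose were 80.0%, 90.0% and 90.0%, against 19.6%, 21.7% and 24.3% of all tested probe sets. SLC31A2, a copper transporter of endosomal and lysosomal membranes, read 7.97 and 7.999 with largazole, 8.12 and 8.08 with SAHA and 8.16 and 8.09 with FK228, against 7.25 and 7.22 with vehicle. All treated arrays of SLC31A2 lay above the vehicle arrays, and the rises were 0.75, 0.87 and 0.89. SLC31A1, the high-affinity copper importer, rose at its 3 probe sets by 0.33 to 0.73 with largazole, 0.55 to 1.05 with SAHA and 0.70 to 0.86 with FK228. The exporting ATPase ATP7B rose by 0.67, 0.61 and 0.34, and the chaperone ATOX1 by 0.42, 0.37 and 0.38. SOD1, the copper- and zinc-containing superoxide dismutase, was not called (0.027, 0.023 and 0.081).

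**Figure D4:**
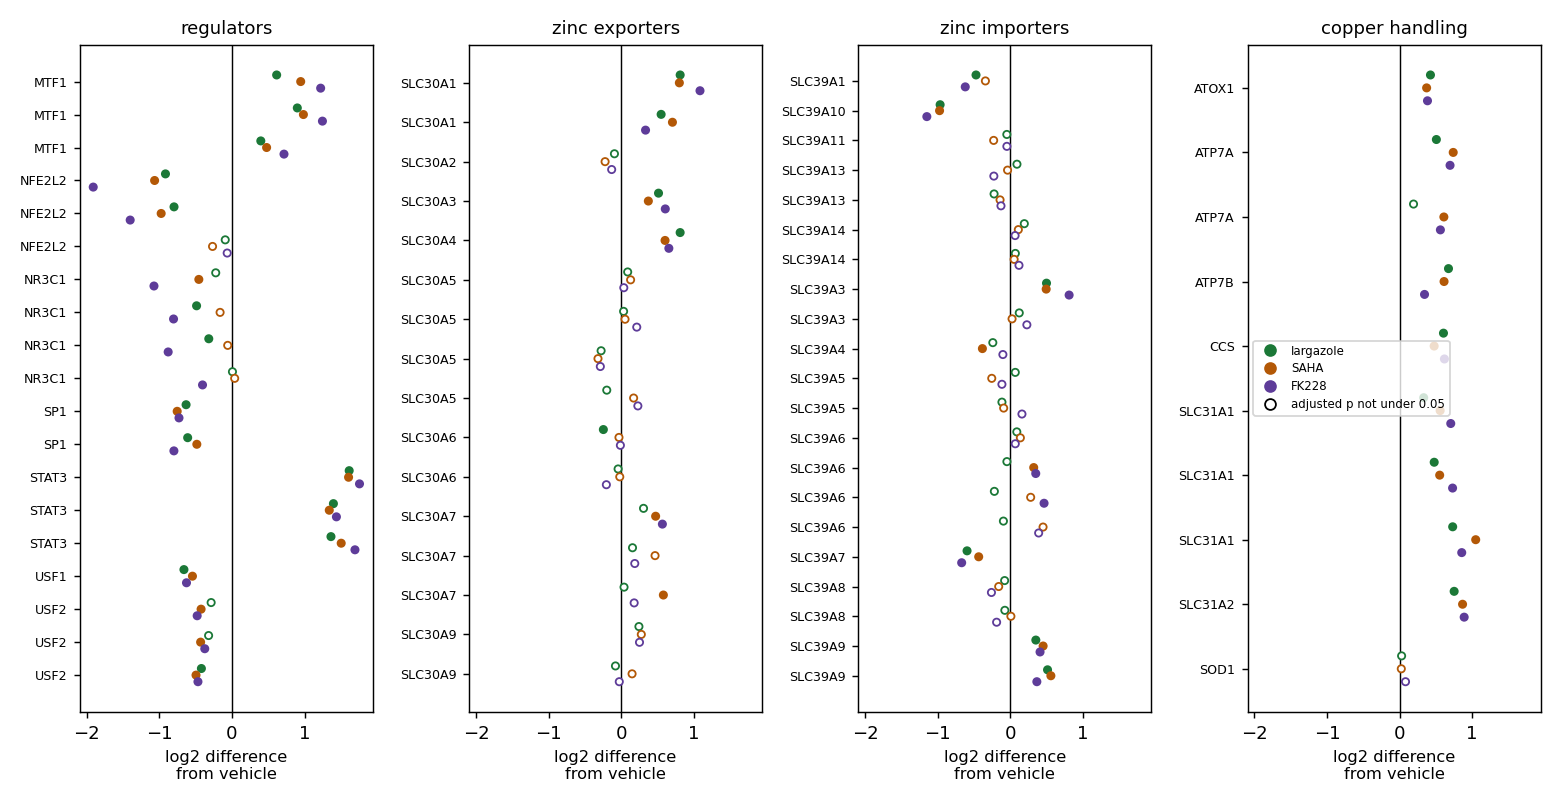
Log2 difference from vehicle of each tested probe set of known regulators, zinc exporters, zinc importers and copper handling genes with largazole, SAHA and FK228; open circles were not called. MTF1, STAT3 and SLC30A1 lie right of 0 at every tested probe set, NFE2L2 and SP1 lie left of 0, and all copper handling genes except SOD1 lie right of 0 by 0.19 or more.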

How the data were processed

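HCT116 samples (2 per group) were profiled on Affymetrix arrays. The authors deposited log2 values, 1 per probe set and array. Per the submitters' processing notes, affy, RMA and limma were used, with no version, role or order. Further steps are not given in the sources used here. Duplicates are mentioned in the labels without saying whether cultures were separate, so each p reflects the spread of these samples alone, which may be technical.

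A single limma model (version 3.58.1, R 4.3.3) covered all 8 arrays with a mean for each group, and its variances were moderated by eBayes (4 residual and 3.69 prior degrees of freedom). Probe sets whose second-highest value reached 4.49, the median of all values, were tested (28985), and Benjamini-Hochberg adjustment ran over all of them. With 2 arrays a group, the smallest two-sided p of an exact permutation test is 0.333, so none was run. The number of arrays limits precision: the median half-width of a 95% confidence interval was 0.26 on the log2 scale. Of 54613 probe sets, 41091 have 1 symbol, 1801 several and 11721 none in the platform annotation. On simulated arrays (largazole against vehicle, 28985 probe sets), the model recovered 0 of 50 changes of 1.2-fold, 22 of 50 of 1.5-fold, 36 of 50 of 2-fold and 48 of 50 of 4-fold. Only 200 probe sets were changed there, far fewer than were called in the real data, so its adjusted threshold was stricter.

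Named genes are every member probe set, up to 2 highest and 2 lowest called genes of each list, and the 5 genes whose values correlate best with the family. SOD1, BBS2, OGFOD1, MT3, MT4, ATP7B and ATOX1 were named beyond that rule after their values were seen. Members and lists were chosen with earlier results of these data known. Promoters come from the RefSeq table (GRCh38.p14). Figures used matplotlib 3.10.9 and pandas 2.3.3 under Python 3.11.15. The 16 alternatives were testing all probe sets, a filter at 6.87, a robust prior with an intensity trend, the replicate block, array weights, equal ribosomal protein medians, a further quantile normalization, only the 4 arrays compared, and each array left out. The remaining lone array was then assumed to have the spread of the groups with 2.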

Additional observations from a re-analysis of the deposited data

How the results depend on the processing

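All 432 values of the 9 tested metallothionein probe sets against vehicle kept their sign in the 16 alternatives. The count of probe sets called with largazole was 4 to 8 when single arrays were left out, and 6 to 9 under the other alternatives. It was 6 to 9 for SAHA and 4 to 9 for FK228 over all alternatives, and 9 for FK228 with an intensity trend and robust prior. Of the values against vehicle, 31 lost a call and 11 gained one. FK228 minus largazole changed sign for MT1E 216336_x_at without largazole replicate 1 (-0.060, against 0.097 without largazole replicate 2) and for MT1X 204326_x_at without FK228 replicate 1 (-0.022, against 0.031 without FK228 replicate 2), and none of these was called. Over all probe sets, FK228 against largazole gave 2385 calls, against 1058 with no filter, 3741 with an intensity trend, 3587 with the replicate block, 1240 with 4 arrays alone and 191 to 1991 with an array left out. With the replicate block, 9 metallothionein probe sets were called with largazole, 9 with SAHA, 7 with FK228 and 0 between FK228 and largazole; the labels give only a shared number, and the differences between replicates 1 and 2 correlated at 0.13 to 0.27 over the 6 pairs of groups. The 2 arrays per group and signal near the top of the scale limit the sizes.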

Other observations

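The genes named here as most like the mean of the 9 tested metallothionein probe sets over the 8 arrays lay outside metal handling. They are only the top of the ranking, and the ranks of metal handling genes are not given. SLC30A1 and SLC31A2, for example, also rose with each compound, so a similar profile in metal handling genes is not excluded. Over 24576 probe sets with 1 symbol, Pearson's r was highest for CYSTM1 (0.996), a cysteine-rich transmembrane protein, GPSM2 (0.994), a spindle orientation protein, GPC4 (0.993), a cell-surface glypican, MLLT3 (0.993), a subunit of transcription elongation complexes, and KIAA0513 (0.992). CYSTM1 differed from vehicle by 0.66 with largazole, 0.78 with SAHA and 0.58 with FK228, and MLLT3 by 1.65, 1.86 and 1.41. For MT2A alone, the most alike were ZNF559 (0.988), RHOF (0.986), TRDMT1 (0.983), MAOA (0.982) and KAZN (0.98). Of these probe sets, 7.41% had an r over 0.9 with the family mean and 2.09% with MT2A. All points share the split between treated and vehicle arrays, so these are descriptions of likeness only.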
